A study of Mus musculus with 16 samples.

Results

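Cxcl12, Tnfrsf11b, Csf1, Il34, Kitl and Il33 encode secreted factors that stromal cells make and that act on macrophages or on cells around them. These 6 of the 17097 genes measured were listed by symbol, with earlier results of the same arrays known, and each was read from whichever of its probe sets averaged highest over the 16 arrays. Each array carried RNA from a pool of cells labelled as macrophages of adipose tissue, taken from mice aged 19 to 21 weeks. The source label of every group also carries NCD, which the labels do not spell out and all groups share. The WT groups are Sucnr1 flox/flox mice, and the KO-LysM groups are mice in which Sucnr1, the succinate receptor, was deleted by a Cre recombinase under the LysM (lysozyme) promoter, active in myeloid cells. The floxed alleles are thus shared by all groups and Cre is carried by the KO-LysM mice alone, so deletion and Cre cannot be told apart. SAT is subcutaneous and VAT visceral adipose tissue, which gives WT SAT, WT VAT, KO-LysM SAT and KO-LysM VAT with 4 pools each. In each group, 2 pools belong to day 1 and 2 to day 2, as labelled. The labels do not give the number of mice in a pool, so p-values measure the spread between pools. Cells were selected with CD11b beads from collagenase-digested fat, although another label names F4/80+ cells. RNA from 300000 cells was amplified over 24 cycles of cDNA synthesis.

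Macrophages in fat live among fibroblast-like stromal cells, vessels and adipocytes, and several of their signals come from that surrounding tissue. CSF1 and IL-34 both act through the CSF1 receptor, which macrophages need to survive. CXCL12 retains leukocytes in tissues, osteoprotegerin (the product of Tnfrsf11b) captures the ligands of death and osteoclast receptors, KIT ligand sustains mast cells and progenitors, and IL-33 is an alarmin that acts on group 2 lymphoid cells, regulatory T cells and mast cells of fat.

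The promoters of Cxcl12, Kitl and Il33, members that differed between groups, are shown first. RefSeq promoters (mouse assembly GRCm38.p6) were at hand for 4 of the 6 members: Cxcl12, Csf1, Kitl and Il33, the last with a pair of start sites. Each window runs from 250 bases before to 50 bases after the start site and is written 5′ to 3′ on the strand of the gene, with matches to the searched motifs in capitals. The motifs, searched on both strands, were the GC box GGGCGG, the TATA box TATAAA, the hypoxia response core ACGTG, the AP-1 site TGANTCA, the GAS element TTCNNNGAA and the NF-kB motif. The Cxcl12 and Kitl windows are printed for their GC boxes and the Il33 windows for their lack of them.
Cxcl12, chr6:117168285-117168584, plus strand: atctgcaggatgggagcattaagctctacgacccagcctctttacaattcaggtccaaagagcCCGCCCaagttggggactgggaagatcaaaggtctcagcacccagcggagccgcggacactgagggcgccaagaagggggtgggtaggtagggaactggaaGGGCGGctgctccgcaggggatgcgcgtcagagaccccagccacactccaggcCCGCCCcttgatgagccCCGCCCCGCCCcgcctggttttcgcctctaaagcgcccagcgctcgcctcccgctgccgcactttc
Kitl, chr10:100015571-100015870, plus strand: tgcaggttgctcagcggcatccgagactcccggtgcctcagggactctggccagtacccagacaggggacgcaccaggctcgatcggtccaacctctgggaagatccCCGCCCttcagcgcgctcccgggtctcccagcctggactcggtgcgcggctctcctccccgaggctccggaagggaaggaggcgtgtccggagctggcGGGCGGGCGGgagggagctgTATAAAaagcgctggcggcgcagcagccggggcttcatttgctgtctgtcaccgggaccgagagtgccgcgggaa
Il33 first start, chr19:29924863-29925162, plus strand: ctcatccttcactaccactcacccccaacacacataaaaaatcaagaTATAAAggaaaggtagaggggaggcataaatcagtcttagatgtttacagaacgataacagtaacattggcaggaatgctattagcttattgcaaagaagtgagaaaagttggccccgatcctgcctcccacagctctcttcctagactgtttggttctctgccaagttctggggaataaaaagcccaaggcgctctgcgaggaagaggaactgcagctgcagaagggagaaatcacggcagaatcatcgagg
Il33 second start, chr19:29945540-29945839, plus strand: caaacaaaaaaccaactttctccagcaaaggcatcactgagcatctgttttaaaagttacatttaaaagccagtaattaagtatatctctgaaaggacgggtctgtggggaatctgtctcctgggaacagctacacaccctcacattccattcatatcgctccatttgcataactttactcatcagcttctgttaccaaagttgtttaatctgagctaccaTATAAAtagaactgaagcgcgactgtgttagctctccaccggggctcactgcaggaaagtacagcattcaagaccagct

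The Cxcl12 window held 5 GC boxes, some of them overlapping, and the Kitl window held 3 GC boxes, a pair of them overlapping, and a TATA box at -25. Neither Il33 window held a GC box. A TATA box stood at -29 before the second Il33 start and at -203 before the first. The Csf1 window, not printed, lies at chr3:107760420-107760719 on the minus strand and held 2 GC boxes and 1 NF-kB motif, at -154. Among all 32851 promoters of 300 bases, 35.7% held a GC box, 13.6% a TATA box, 4.51% the NF-kB motif, 19.6% the hypoxia response core, 7.81% the AP-1 site and 8.3% the GAS element. A match describes letters in the window and shows no binding, and no link between these letters and the array values was tested.

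All values are log2 units of the arrays. A gene was called at a limma adjusted p under 0.05 (Benjamini-Hochberg over the 17097 genes, two-sided), and errors of differences are standard errors (SE). A value counted as above background when it exceeded 4.777, the 95th percentile of 41 olfactory receptor genes. Sucnr1 itself was above background on none of the arrays (group means from 3.52 to 3.55), so it does not check the genotype labels. The spread of values on an array, as the interquartile range, was wider on KO-LysM arrays (2.36 to 2.63) than on WT SAT arrays (2.12 to 2.29), while WT VAT arrays covered 2.01 to 2.54. Fits below with array spread as a term can therefore also take up part of a difference between WT SAT and the KO-LysM groups. Of 16 macrophage markers, 15 were above background, with Adgre1, the gene of F4/80, at means of 8.86 and 8.27 in SAT and VAT of WT and of 8.97 and 8.11 in those of KO-LysM. The 5 seminal vesicle genes, made by a gland next to the visceral fat of male mice, stood against the depot labels. Their mean level was 10.1 to 10.8 on the arrays labelled KO-LysM SAT and 4.48 to 6.13 on all other arrays, and Svs4 was at 11.44 ± 0.32 (SD, n = 4) on the former. WT SAT pool 2 also carried Svs4, at 7.30. Svs5 had means above background in every group: 9.07 in WT SAT, 8.73 in WT VAT and 8.15 in KO-LysM VAT, against 11.36 in KO-LysM SAT. Groups are therefore named below by their labels, every depot statement for KO-LysM rests on those labels, and the comparisons across both labels (KO-LysM SAT with WT VAT, KO-LysM VAT with WT SAT) are given as well.

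Cxcl12, the chemokine that signals through CXCR4, was low on WT SAT arrays and high on WT VAT arrays, and the order of the depots was turned round on the KO-LysM arrays. In WT SAT its 4 pools were at 5.83, 5.99, 5.60 and 5.68, and in WT VAT at 7.85, 8.22, 9.51 and 8.61. In KO-LysM SAT the pools were at 8.81, 8.42, 8.80 and 9.11, and in KO-LysM VAT at 7.10, 6.95, 7.44 and 7.44. All 16 arrays were above background. WT SAT lay below every other array, and KO-LysM VAT lay between WT SAT and the other groups without overlap, whereas the pools of WT VAT and KO-LysM SAT overlapped.

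Cxcl12 differed between the wild-type depots by 2.77 ± 0.23 (SE), higher in VAT (6.84-fold). This difference was known when the gene was chosen and is given with no test. On day 1 it was 2.13 and on day 2 it was 3.42. Between the KO-LysM depots Cxcl12 fell from SAT to VAT by 1.55 ± 0.23 (limma adjusted p = 0.000947), by 1.59 on day 1 and 1.52 on day 2. The depot differences of the genotypes themselves differed by -4.33 ± 0.33 (limma adjusted p = 9.11e-07), a contrast that contains the wild-type difference and is not independent of how the gene was chosen.

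Read by genotype, Cxcl12 rose in KO-LysM SAT against WT SAT by 3.01 ± 0.23 (8.06-fold, limma adjusted p = 1.18e-06) and fell in KO-LysM VAT against WT VAT by 1.32 ± 0.23 (limma adjusted p = 0.00237). Across both labels, KO-LysM SAT and WT VAT differed by 0.24, with an interval of -0.25 to 0.73 (95%) and an adjusted p of 0.467, and KO-LysM VAT stood above WT SAT by 1.46 (adjusted p = 0.00059). The last value was 0.82 with array spread as a term (adjusted p = 0.0362) and 0.89 as the mean of the probe sets. The 2 other Cxcl12 probe sets were above background on all 16 arrays and had the same signs in the single-label comparisons. They gave 2.36 and 1.48 between the wild-type depots and -1.36 and -0.93 between the KO-LysM depots. For KO-LysM against WT they gave 2.18 and 1.32 in SAT and -1.54 and -1.09 in VAT. Across both labels their sign was opposite for KO-LysM SAT against WT VAT (-0.17 and -0.16). By these probe sets KO-LysM VAT stood above WT SAT by 0.82 (SE 0.165) and 0.39 (SE 0.21), less than by the chosen one.

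**Figure D1:**
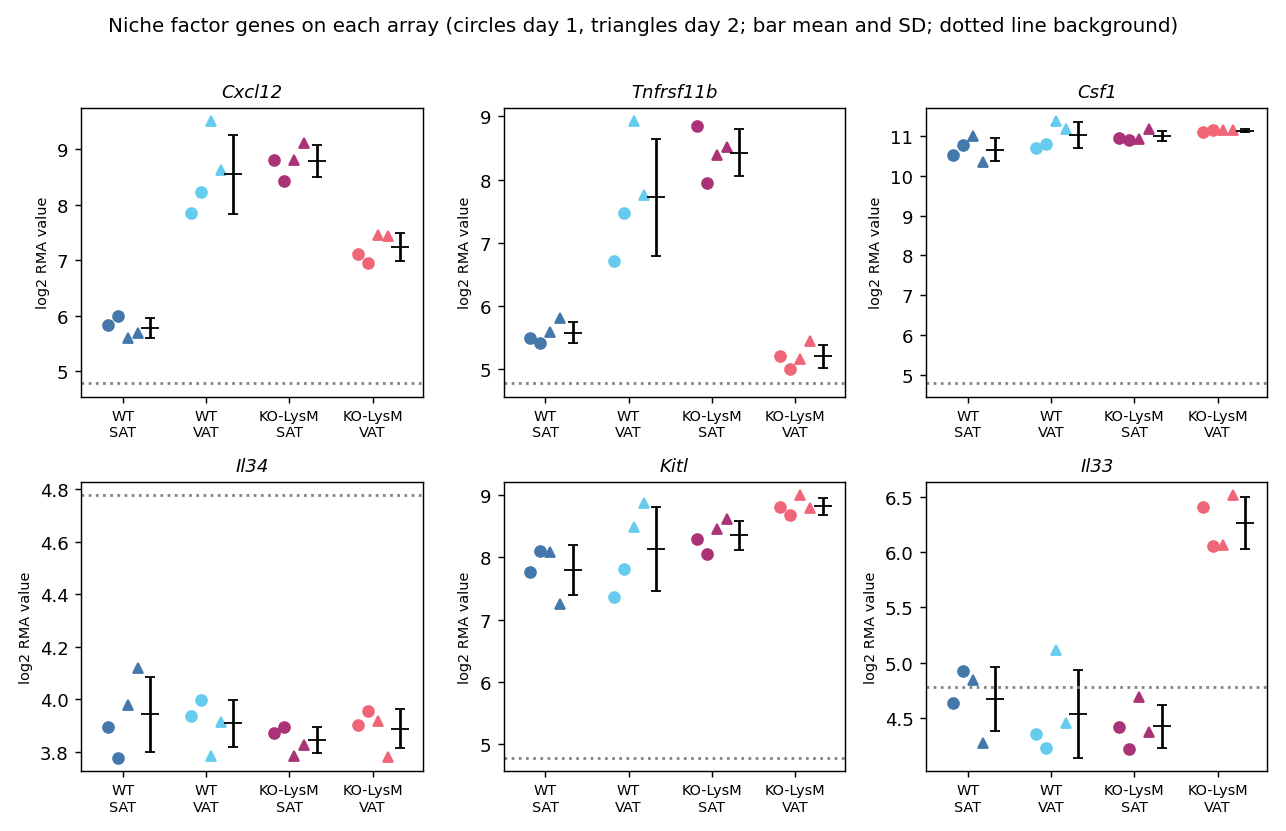
Log2 value of each of the 6 genes on each of 16 arrays, by group; circles are day 1, triangles day 2, bars the mean ± SD of 4 pools and the dotted line the background level of 4.777. Cxcl12 and Tnfrsf11b are high in WT VAT and KO-LysM SAT, Il33 is above the line on all 4 arrays of KO-LysM VAT, and Il34 is below it on every array.

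Tnfrsf11b, the gene of the soluble decoy receptor osteoprotegerin, followed the same outline with a deeper low in KO-LysM VAT. Its pools were at 5.50, 5.42, 5.58 and 5.82 in WT SAT and at 6.70, 7.47, 8.93 and 7.76 in WT VAT. In KO-LysM SAT they were at 8.85, 7.95, 8.38 and 8.52, and in KO-LysM VAT at 5.20, 5.01, 5.17 and 5.44. The pools of WT SAT and KO-LysM VAT overlapped, as did those of WT VAT and KO-LysM SAT, and between these pairs of groups no value was shared. WT VAT had the widest spread, from pool 1 at 6.70 to pool 3 at 8.93.

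Tnfrsf11b rose from WT SAT to WT VAT by 2.14 ± 0.29 (limma adjusted p = 0.000858), with 1.63 on day 1 alone (adjusted p = 0.0512, not called) and 2.65 on day 2. The KO-LysM depots differed by -3.22 ± 0.29, VAT minus SAT (9.32-fold), a value known when the gene was chosen and not tested. Against WT of the same depot, it rose by 2.85 ± 0.29 in KO-LysM SAT (limma adjusted p = 2.89e-05) and fell by 2.51 ± 0.29 in KO-LysM VAT (limma adjusted p = 0.000124). The depot differences of the genotypes differed by -5.36 ± 0.41 (limma adjusted p = 1.1e-06), again not independent of the choice of gene. Across both labels, KO-LysM SAT and WT VAT differed by 0.71 (interval 0.088 to 1.33, adjusted p = 0.113), and KO-LysM VAT and WT SAT by -0.37 (interval -0.99 to 0.25, adjusted p = 0.3).

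The second Tnfrsf11b probe set was below background on all 16 arrays. Averaged with it, the differences kept their signs and were smaller, and the tested ones kept their calls: 1.32 between the wild-type depots, -2.07 between the KO-LysM depots (not tested), 1.91 and -1.48 for KO-LysM against WT in SAT and VAT, and -3.39 for the difference of depot differences.

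Csf1, the main growth factor of macrophages, varied little. The WT SAT pools were at 10.53, 10.77, 10.996 and 10.34, and those of WT VAT at 10.70, 10.80, 11.39 and 11.19. KO-LysM SAT was at 10.96, 10.89, 10.94 and 11.19, and KO-LysM VAT at 11.09, 11.14, 11.16 and 11.15. Every pair of groups overlapped except WT SAT and KO-LysM VAT, and KO-LysM VAT had the narrowest range of pools.

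Csf1 was called in 1 of 7 comparisons, KO-LysM VAT against WT SAT, where it was higher by 0.48 ± 0.14 (limma adjusted p = 0.0165). That call was lost on day 2 alone (0.49, adjusted p = 0.0912), for the mean of its probe sets (0.39, adjusted p = 0.0636), with array spread as a term (0.084, adjusted p = 0.789) and without WT SAT pool 4 (0.33, adjusted p = 0.0555). In the other 6 comparisons the differences ran from -0.22 to 0.36 and none was called. The 0.36, between the wild-type depots, had an interval of 0.064 to 0.66 and an adjusted p of 0.223. For KO-LysM against WT the values were 0.34 in SAT (interval 0.041 to 0.63, adjusted p = 0.0673) and 0.12 in VAT (interval -0.18 to 0.41, adjusted p = 0.541).

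Il34, the other ligand of the CSF1 receptor, was below background on every array. Its values ran from 3.78 to 4.12 in WT SAT, 3.78 to 4.00 in WT VAT, 3.78 to 3.89 in KO-LysM SAT and 3.78 to 3.95 in KO-LysM VAT. No comparison was called, and its differences give no fold. The array does not show whether the transcript was present at a low level.

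Kitl, the ligand of the receptor KIT, was above background everywhere and highest in KO-LysM VAT. The pools were at 7.76, 8.10, 8.09 and 7.25 in WT SAT and 7.36, 7.81, 8.49 and 8.87 in WT VAT. They were at 8.30, 8.06, 8.45 and 8.61 in KO-LysM SAT and 8.81, 8.68, 9.0 and 8.79 in KO-LysM VAT. In WT VAT the day 2 pools, 3 and 4, lay above the day 1 pools. KO-LysM VAT lay above all KO-LysM SAT and WT SAT pools, and overlapped WT VAT through WT VAT pool 4.

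Kitl was called in KO-LysM VAT against WT SAT, higher by 1.03 ± 0.24 (limma adjusted p = 0.00588), and this value was 0.10 with array spread as a term (adjusted p = 0.674). None of the single-label comparisons was called: 0.34 between the wild-type depots (interval -0.18 to 0.85, adjusted p = 0.581), 0.47 between the KO-LysM depots (interval -0.049 to 0.98, adjusted p = 0.472), 0.56 for KO-LysM against WT in SAT (interval 0.045 to 1.07, adjusted p = 0.0778) and 0.69 in VAT (interval 0.18 to 1.21, adjusted p = 0.0621). The fit mattered for each of them. Between the KO-LysM depots Kitl was called with only those arrays fitted (adjusted p = 0.00651), with array weights (adjusted p = 0.0242) and with array spread as a term (0.55, adjusted p = 0.000298). In SAT the genotype difference turned to -0.44 with that term (adjusted p = 0.0386). In VAT it was 1.16 on day 1 alone (adjusted p = 0.00469) and 0.22 on day 2. Between the wild-type depots it was -0.34 on day 1 and 1.01 on day 2, the latter called on day 2 alone (adjusted p = 0.0249). The 3 other Kitl probe sets were higher in KO-LysM VAT than in WT SAT by 1.43, 1.40 and 0.82. In the same order they gave 0.21, 0.72 and 0.16 between the wild-type depots and 0.80, 0.67 and 0.57 between the KO-LysM depots. For KO-LysM against WT they gave 0.63, 0.74 and 0.25 in SAT and 1.22, 0.68 and 0.66 in VAT. Their SE were 0.18, 0.21 and 0.17, and they are given with no test. The single-label results above, with no call, are those of the Kitl probe set with the highest mean and do not speak for the others.

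Il33, the alarmin of barrier and stromal cells, was near background in all groups but KO-LysM VAT. In WT SAT its pools were at 4.64, 4.93, 4.84 and 4.27, of which 2 were above background, and in WT VAT at 4.35, 4.23, 5.11 and 4.45, of which 1 was. In KO-LysM SAT they were at 4.42, 4.22, 4.69 and 4.38, all below background. In KO-LysM VAT they were at 6.41, 6.06, 6.07 and 6.52, above every other array.

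Il33 rose from KO-LysM SAT to KO-LysM VAT by 1.84 ± 0.19 (limma adjusted p = 2.64e-05), by 1.91 on day 1 and 1.76 on day 2. With KO-LysM SAT not above background on any array, this is at least a 2.8-fold difference, where the bound takes, per array, the higher of the measured value and the background level. Against WT VAT it rose by 1.73 ± 0.19 (limma adjusted p = 6.37e-05, at least 2.64-fold by the same bound), and against WT SAT by 1.59 ± 0.19 (limma adjusted p = 0.000111, at least 2.7-fold). The depot differences of the genotypes differed by 1.97 ± 0.26 (limma adjusted p = 0.000332), a value with no fold, since it takes in 3 groups in which 3 of 12 arrays were above background. The remaining differences of Il33, between the wild-type depots (-0.13, interval -0.53 to 0.26), for KO-LysM SAT against WT SAT (-0.24, interval -0.64 to 0.15) and for KO-LysM SAT against WT VAT (-0.11, interval -0.51 to 0.29), were not called. Il33 has 1 probe set, so no second one bears on these values.

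**Figure D2:**
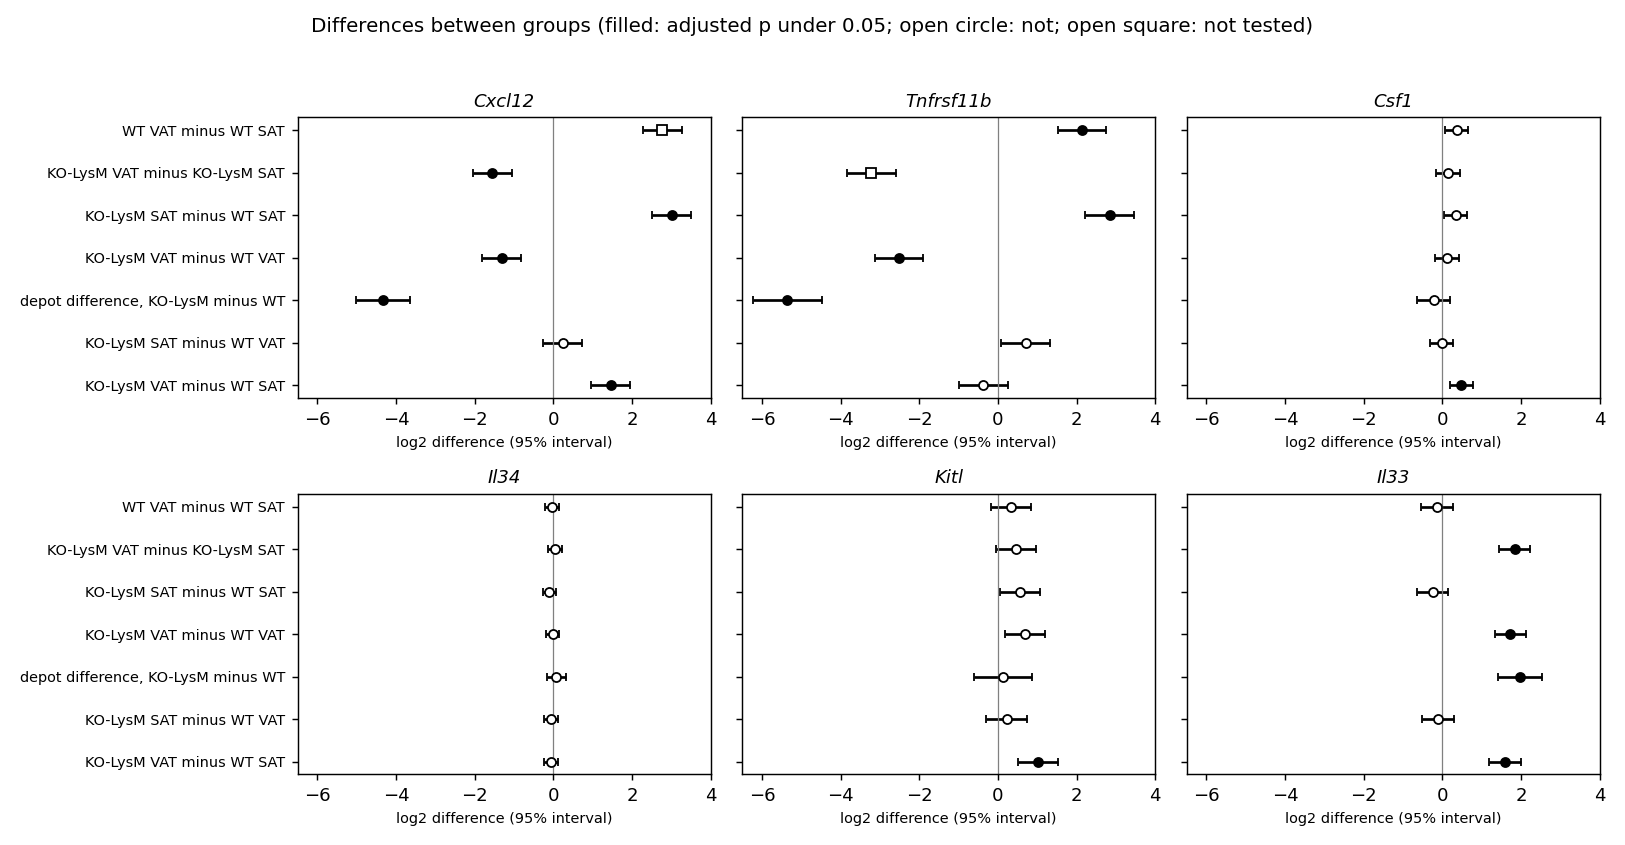
Log2 differences of the 6 genes in the 7 comparisons, with 95% intervals; filled points were called at an adjusted p under 0.05, open circles were not, and open squares were not tested. The Cxcl12 and Tnfrsf11b points lie on opposite sides of 0 in the depot comparisons of the genotypes, and Il33 departs from 0 where KO-LysM VAT is compared.

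Counted over the members, 1 of 5 tested was called between the wild-type depots, where 2.84% of all genes were called, and 2 of 5 between the KO-LysM depots, against 4.32% of all genes. For KO-LysM against WT, 2 of 6 members were called in SAT and 3 of 6 in VAT, against 36.7% and 15.9% of all genes. In the SAT comparison the members' share was thus near that of all genes. The difference of depot differences was called for 3 of 6, against 4.22% of all genes. Across both labels, 0 of 6 members were called by limma between KO-LysM SAT and WT VAT, against 6.89% of all genes, with 1 member (Tnfrsf11b) at an unadjusted p under 0.05, and 4 of 6 between KO-LysM VAT and WT SAT, against 39.3%. The median difference of the members was 0.45 for KO-LysM SAT against WT SAT and 0.05 for KO-LysM VAT against WT VAT, with medians over all genes of -0.055 and -0.054. The 6 genes were chosen with results of these arrays known, so the counts describe them and no more.

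In order of level, Cxcl12 and Tnfrsf11b were highest in KO-LysM SAT and then in WT VAT, neighbours whose difference was not called. Below them, Cxcl12 in KO-LysM VAT was called apart from both WT VAT and WT SAT, and Tnfrsf11b in WT SAT and KO-LysM VAT was not called apart. Csf1 and Kitl were highest in KO-LysM VAT and lowest in WT SAT, with no neighbouring groups in that order called apart. Il33 was highest in KO-LysM VAT, and the other groups were not called apart. Across the 16 arrays, after each day's mean was subtracted, Pearson's r was 0.85 between Cxcl12 and Tnfrsf11b, 0.85 between Csf1 and Kitl, 0.66 between Kitl and Il33 and -0.62 between Tnfrsf11b and Il33. These points share the 4 groups, and a correlation over them describes the group pattern.

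The receptors and binding partners were read from the same arrays. Of 11 listed genes, 8 were measured: Ackr3, Tnfsf11, Tnfrsf11a, Tnfsf10, Csf1r, Kit, Il1rap and Ptprz1. Cxcr4, Il1rl1 and Sdc1 were not analysed here. Kit, the receptor of KIT ligand, Tnfsf11 (RANKL), which osteoprotegerin binds, and Ptprz1, a second receptor of IL-34, were above background on no array.

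Ackr3, a receptor that scavenges CXCL12, was not above background in WT SAT (3.97 to 4.04). It was at 4.02, 4.13, 5.01 and 4.88 in WT VAT, at 4.99, 4.61, 5.05 and 5.38 in KO-LysM SAT and at 5.18, 5.08, 5.41 and 5.05 in KO-LysM VAT. The WT VAT pools split by day, with day 2 above background. Ackr3 was at least 1.17-fold higher in KO-LysM SAT than in WT SAT by the bound used for Il33 (limma adjusted p = 0.0011) and at least 1.32-fold higher in KO-LysM VAT than in WT SAT (limma adjusted p = 0.000307). It was higher in KO-LysM VAT than in WT VAT by 0.67 (limma adjusted p = 0.017), with 1.06 on day 1 and 0.28 on day 2 (adjusted p = 0.461 on day 2 alone), and the call was lost on leaving out WT VAT pool 1 or 2 or KO-LysM VAT pool 1 or 3 (adjusted p = 0.0513 to 0.0632). With array spread as a term the SAT and VAT genotype differences were 0.42 (adjusted p = 0.107) and 0.32 (adjusted p = 0.114), and neither was called.

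Csf1r, the receptor of CSF1 and IL-34, ran from 8.27 to 8.75 in WT SAT, 7.73 to 8.61 in WT VAT, 8.39 to 8.56 in KO-LysM SAT and 7.63 to 8.05 in KO-LysM VAT. It fell from KO-LysM SAT to KO-LysM VAT by 0.60 ± 0.15 (limma adjusted p = 0.0293, and adjusted p = 0.052 with pool number as a replicate block), and was lower in KO-LysM VAT than in WT SAT by 0.63 (limma adjusted p = 0.00568). The depot call was also lost on day 1 alone (adjusted p = 0.107), on day 2 alone (adjusted p = 0.357), without the day term (adjusted p = 0.0564) and with each array centred on its median (adjusted p = 0.0737). It was lost as well without KO-LysM SAT pool 1, 2 or 3 or KO-LysM VAT pool 2, 3 or 4 (adjusted p = 0.0569 to 0.114). Csf1r is also 1 of the macrophage markers, of which 7 of 16 fell and 0 rose from KO-LysM SAT to KO-LysM VAT. Over all genes, 4.32% were called in that comparison. Adgre1 fell by 0.86 there. In KO-LysM VAT against WT SAT, 12 of the 16 macrophage markers fell and 0 rose, where 39.3% of all genes were called. The part of macrophage content in the Csf1r difference was not tested. In a bulk sample, fewer cells of a type and less RNA per cell cannot be told apart.

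Tnfrsf11a (RANK), the receptor whose ligand osteoprotegerin captures, was at 5.16 to 5.55 in KO-LysM SAT and at 4.43 to 5.16 in KO-LysM VAT, where 1 of 4 arrays was above background. It fell between these groups by 0.63 ± 0.16 (limma adjusted p = 0.0409, and adjusted p = 0.0751 with pool number as a replicate block), and the call was also lost on each day alone, with the mean of its probe sets (-0.43), with each array centred on its median, and on leaving out pool 1 or 3 of WT SAT, pool 2 of WT VAT, any 1 KO-LysM SAT pool, or KO-LysM VAT pool 1, 2 or 4 (adjusted p = 0.0511 to 0.151). Tnfsf10 (TRAIL), a second ligand of osteoprotegerin, was lower in KO-LysM VAT (5.69 to 5.97) than in WT VAT (6.05 to 6.33), by 0.44 ± 0.12 (limma adjusted p = 0.0272). That call was lost with array spread as a term (-0.23, adjusted p = 0.216), on day 2 alone, without the KO-LysM SAT arrays, and without WT VAT pool 1 or 2 or KO-LysM VAT pool 1, 2 or 3 (adjusted p = 0.0662 to 0.0891). Il1rap, the signalling partner of the IL-33 receptor, was at 6.55 to 7.03 in KO-LysM VAT, above all pools of the other groups, which lay between 5.63 and 6.54. It rose against WT VAT by 0.67 ± 0.16 (limma adjusted p = 0.0151) and against WT SAT by 0.88 (limma adjusted p = 0.00141), but the mean of its 5 probe sets differed by 0.15 (adjusted p = 0.0656) and 0.20 (adjusted p = 0.0126). With array spread as a term the Il1rap values were 0.34 (adjusted p = 0.101) and 0.40 (adjusted p = 0.114). The first was also not called on day 2 alone (adjusted p = 0.335) or without WT VAT pool 2 or KO-LysM VAT pool 1 or 3 (adjusted p = 0.0506 to 0.0571).

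Counted over the 8 measured receptors and partners, 0 rose and 2 fell between the KO-LysM depots (0 called with pool number as a replicate block), 1 rose and 1 fell for KO-LysM against WT in SAT, and 2 rose and 1 fell in VAT. Over all genes, 4.32%, 36.7% and 15.9% were called in these comparisons, so that the receptors' share in SAT was below that of all genes. The gene that fell in SAT was Kit, at values below background. Between the wild-type depots and for the difference of depot differences limma called 0, with 2 and 3 at an unadjusted p under 0.05.

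**Figure D3:**
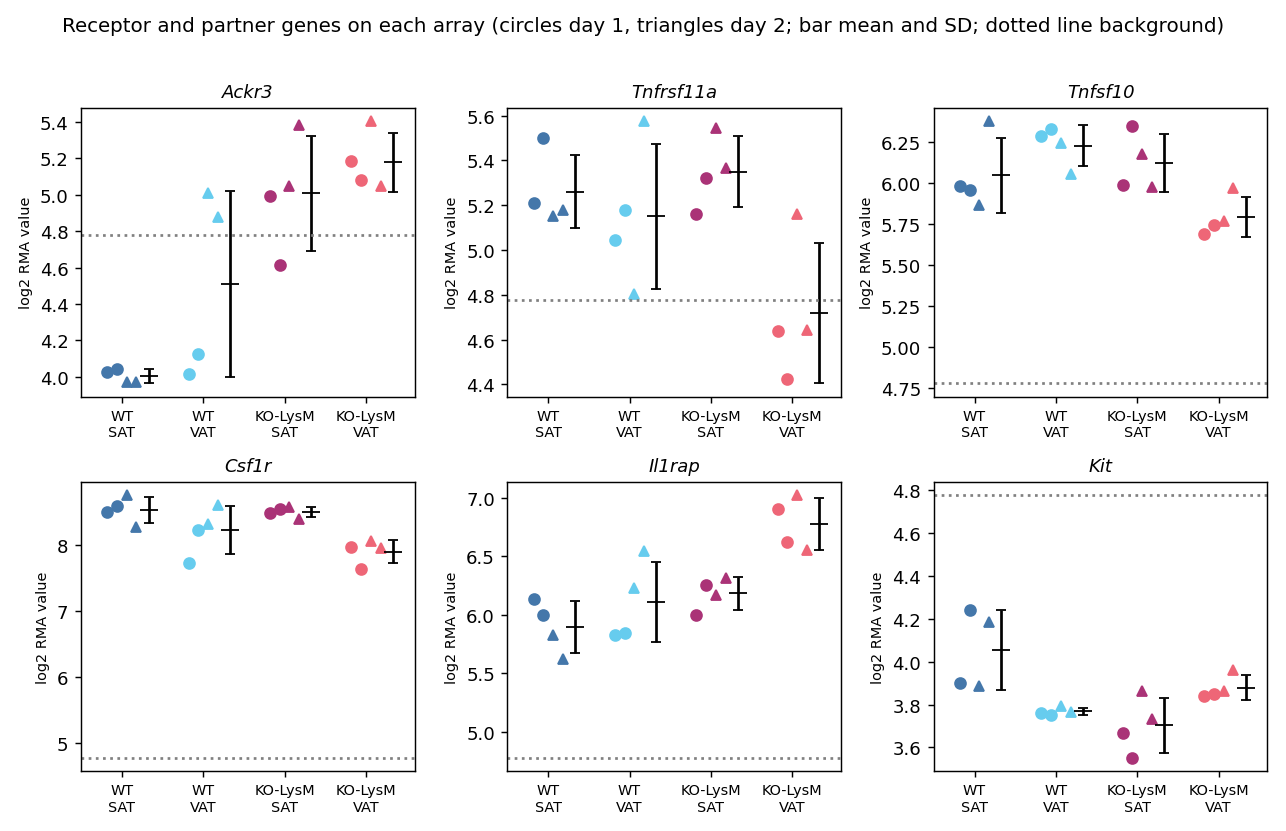
Log2 values of Ackr3, Tnfrsf11a, Tnfsf10, Csf1r, Il1rap and Kit on each array, by group; circles are day 1, triangles day 2, bars the mean ± SD of 4 pools and the dotted line the background level of 4.777. Il1rap is highest in KO-LysM VAT, Csf1r and Tnfrsf11a have their lowest means there, and Kit lies below the line on every array.

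Markers of cells that make these factors moved with some of them. Of 18 stromal progenitor markers measured (17 above background), 6 rose and 1 fell from WT SAT to WT VAT, 9 rose and 3 fell from WT SAT to KO-LysM SAT, 3 rose and 0 fell from KO-LysM SAT to KO-LysM VAT, and 2 rose and 0 fell from WT VAT to KO-LysM VAT. The shares of all genes called there were 2.84%, 36.7%, 4.32% and 15.9%. From WT SAT to KO-LysM VAT, 10 of the 18 rose and 0 fell, where 39.3% of all genes were called. Mfap5, a microfibril protein of fibroblasts, rose by 1.82 ± 0.27 from WT SAT to WT VAT (limma adjusted p = 0.00176) and by 1.92 ± 0.27 from WT SAT to KO-LysM SAT (limma adjusted p = 0.000428). The genes that fell from WT SAT to KO-LysM SAT were Thy1 (-0.96), Col1a1 (-0.53) and Pi16 (-0.39). Thy1 was also the gene that fell from WT SAT to WT VAT (-0.52). The collagen gene Col3a1 rose from KO-LysM SAT to KO-LysM VAT by 1.18 ± 0.19 (limma adjusted p = 0.00205), in the comparison where Cxcl12 fell. Col1a1 (0.72) and Thy1 (0.81) were also called higher there. Pdgfra (-0.55), Mfap5 (-0.39) and Pdgfrb (-0.36) were among those lower there without a call. Cd3e, a T cell gene given below, had the sign of Thy1 in each comparison where Thy1 is named. It differed by -2.00 from WT SAT to KO-LysM SAT, by -1.73 from WT SAT to WT VAT and by 0.81 between the KO-LysM depots. On day 1 alone 0 stromal markers were called between the wild-type depots, and 0 when the 8 wild-type arrays were fitted without the others.

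The mean level of the stromal list was 6.62 to 6.86 in WT SAT, 6.91 to 7.51 in WT VAT, 6.99 to 7.29 in KO-LysM SAT and 7.31 to 7.42 in KO-LysM VAT. It was thus lowest in WT SAT, where Cxcl12, Csf1 and Kitl were also lowest. On average it was highest in KO-LysM VAT, where Csf1, Kitl and Il33 were also highest and Tnfrsf11b was lowest. Pdgfra, the receptor that defines these progenitors, was near or below background: its means were 3.99 and 4.60 in SAT and VAT of WT and 4.95 and 4.39 in those of KO-LysM, and 3 of 16 arrays were above it. The part of stromal cells in the differences of the 6 genes was not tested.

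Markers of other cell types moved as well. Endothelial markers, another source of Cxcl12, Kitl and Csf1, had a mean level of 5.63 to 5.84 in WT SAT, 5.65 to 6.27 in WT VAT, 6.30 to 6.59 in KO-LysM SAT and 5.50 to 6.28 in KO-LysM VAT. Of 15, 8 rose and 0 fell in KO-LysM SAT against WT SAT, where Cxcl12 and Tnfrsf11b also rose and 36.7% of all genes were called, and limma called 0 between the wild-type depots, with 5 at an unadjusted p under 0.05. Mesothelial markers (15 measured, 6 above background), which line visceral organs and can make Il33, had means of 4.50 to 4.64 in WT SAT, 4.43 to 4.73 in WT VAT, 4.43 to 4.70 in KO-LysM SAT and 4.33 to 4.44 in KO-LysM VAT. In KO-LysM VAT, where Il33 was highest, 1 of the 15 rose and 4 fell against WT VAT (15.9% of all genes called), and 1 rose and 2 fell against KO-LysM SAT (4.32%). The genes that fell against KO-LysM SAT were the keratin genes Krt18 (-1.25, limma adjusted p = 4.32e-05) and Krt8 (-0.97, limma adjusted p = 0.0266). Both had their highest means, 5.99 and 6.52, on the KO-LysM SAT arrays, which carried the seminal vesicle genes. Upk3b, a defining mesothelial gene, had its lowest mean in KO-LysM VAT (6.32, against 6.60 to 6.89) and fell against WT VAT by 0.45 (limma adjusted p = 0.0204). Krt19, a keratin of mesothelium and epithelia, went the other way, with its highest mean there: it rose by 0.43 against WT VAT (limma adjusted p = 0.026) and by 0.48 against KO-LysM SAT (limma adjusted p = 0.0282, and adjusted p = 0.0522 with pool number as a replicate block). Both Krt19 calls were lost on each day alone and without KO-LysM VAT pool 1 or 3, the first also without WT VAT pool 1 or 2 and the second without KO-LysM SAT pool 3 or 4. The Upk3b call was lost on day 2 alone, with array spread as a term (-0.24, adjusted p = 0.161), and without WT VAT pool 1 or KO-LysM VAT pool 1 or 3.

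Mast cells carry KIT and the IL-33 receptor. Of 11 mast cell and basophil markers, 3 were above background, and Cpa3, which defines mast cells, was above it on no array. In KO-LysM SAT against WT SAT, 1 rose and 8 fell, and between the KO-LysM depots, where Il33 rose, 2 rose and 0 fell. Of all genes, 36.7% and 4.32% were called in these comparisons. Among those that fell, Kit, Cpa3, Mcpt4, Ms4a2 and Tpsb2 had means below background in both KO-LysM SAT and WT SAT. Cma1, a mast cell chymase, fell in KO-LysM SAT against WT SAT by 1.14 (limma adjusted p = 0.00031) and rose from there to KO-LysM VAT by 0.83 (limma adjusted p = 0.00507, and adjusted p = 0.173 on day 1 alone). The other gene that rose was Cpa3, at values below background. Of 11 lymphocyte and group 2 lymphoid markers, 0 rose and 4 fell between the wild-type depots, and 0 rose and 6 fell in both KO-LysM SAT and KO-LysM VAT against WT SAT. The shares of all genes called in these comparisons were 2.84%, 36.7% and 39.3%. Cd3e, a chain of the T cell receptor complex, fell by 1.73 in WT VAT (limma adjusted p = 0.000324) and by 2.00 in KO-LysM SAT (limma adjusted p = 3.43e-05), each against WT SAT. Between the KO-LysM depots Cd3e alone was called, higher in VAT by 0.81 (limma adjusted p = 0.04, and adjusted p = 0.0607 with pool number as a replicate block). That call was lost without WT SAT pool 3, WT VAT pool 2, KO-LysM SAT pool 1, 3 or 4, or KO-LysM VAT pool 1, 3 or 4 (adjusted p = 0.0543 to 0.143). Adipocyte markers (9 measured, 5 above background) had means of 5.41 to 5.60, 5.58 to 5.92, 5.76 to 5.87 and 5.63 to 5.87 in WT SAT, WT VAT, KO-LysM SAT and KO-LysM VAT. How far any of these cells contribute to the values of the 6 genes was not tested.

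**Figure D4:**
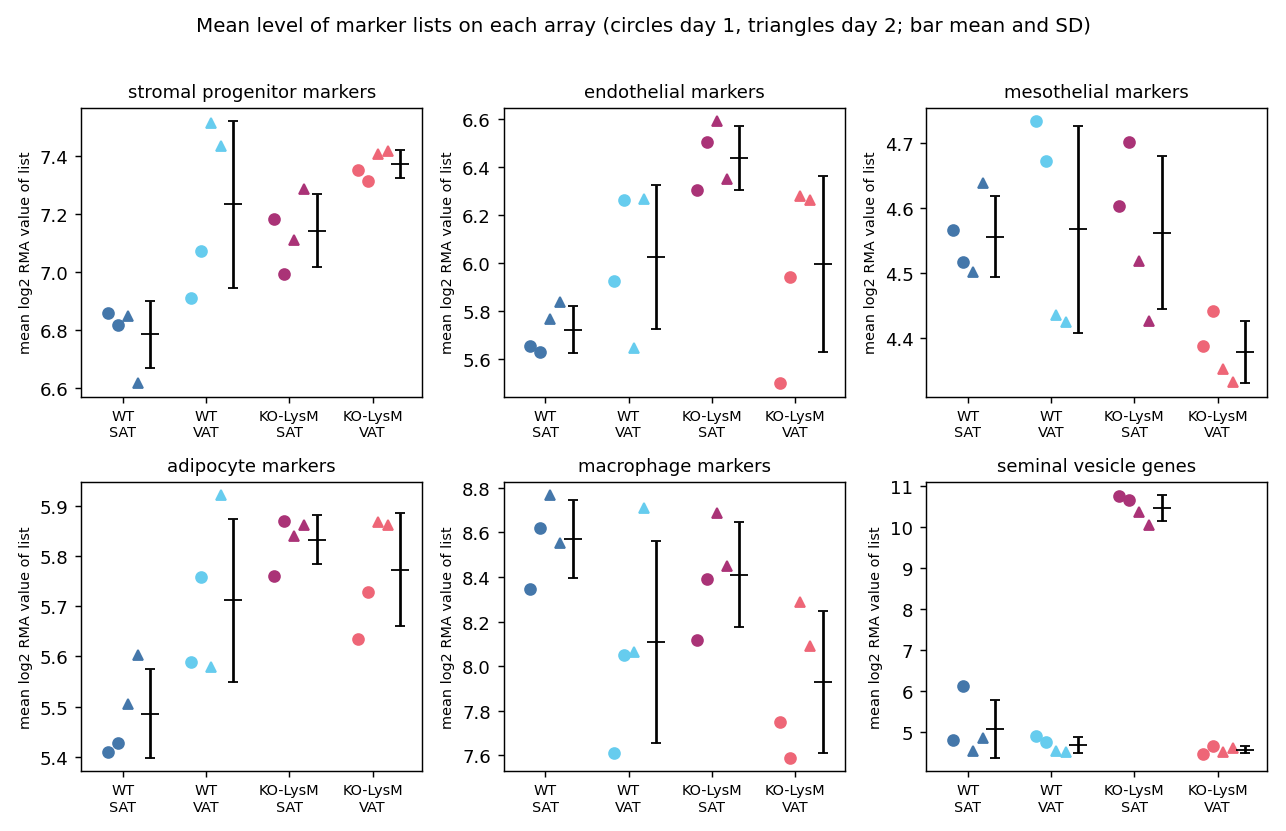
Mean log2 level of 6 marker lists on each array, by group, with circles for day 1 and triangles for day 2. The stromal list is lowest in WT SAT, the endothelial list is highest on average in KO-LysM SAT, and the seminal vesicle list stands apart at 10.1 to 10.8 on the KO-LysM SAT arrays.

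For each member, the genes most like it were taken as those with the highest Pearson correlation over the 16 day-centred arrays. For Cxcl12 these were Cxcl10 (r = 0.974), Fam174b (0.967) and Rdh10 (0.963). Cxcl10, an interferon-induced chemokine, had group means of 8.04, 9.81, 10.1 and 8.76 in WT SAT, WT VAT, KO-LysM SAT and KO-LysM VAT. For Tnfrsf11b they were the cytokine gene Il11 (0.966), the cationic amino acid transporter gene Slc7a2 (0.962) and Lypd1 (0.959), and Slc7a2 had means of 6.2, 8.90, 9.01 and 6.45 in the same order.

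Csf1 was most like Hgh1 (0.968), Slc1a5 (0.955) and Pop1 (0.954), and Kitl most like Snrpf (0.983), Mrps14 (0.979) and Sfpq (0.974), genes of splicing and of the mitochondrial ribosome. Snrpf had means of 7.09, 7.36, 7.69 and 8.10, the order of Kitl. For Il33 they were the copper enzyme gene Heph (0.959), Clca4a (0.955) and the metalloreductase gene Steap2 (0.954), which had means of 5.57, 5.60, 5.59 and 7.02. Il34, below background, was most like Gprin1 (0.886), Tmprss5 (0.875) and Necab2 (0.865).

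**Figure D5:**
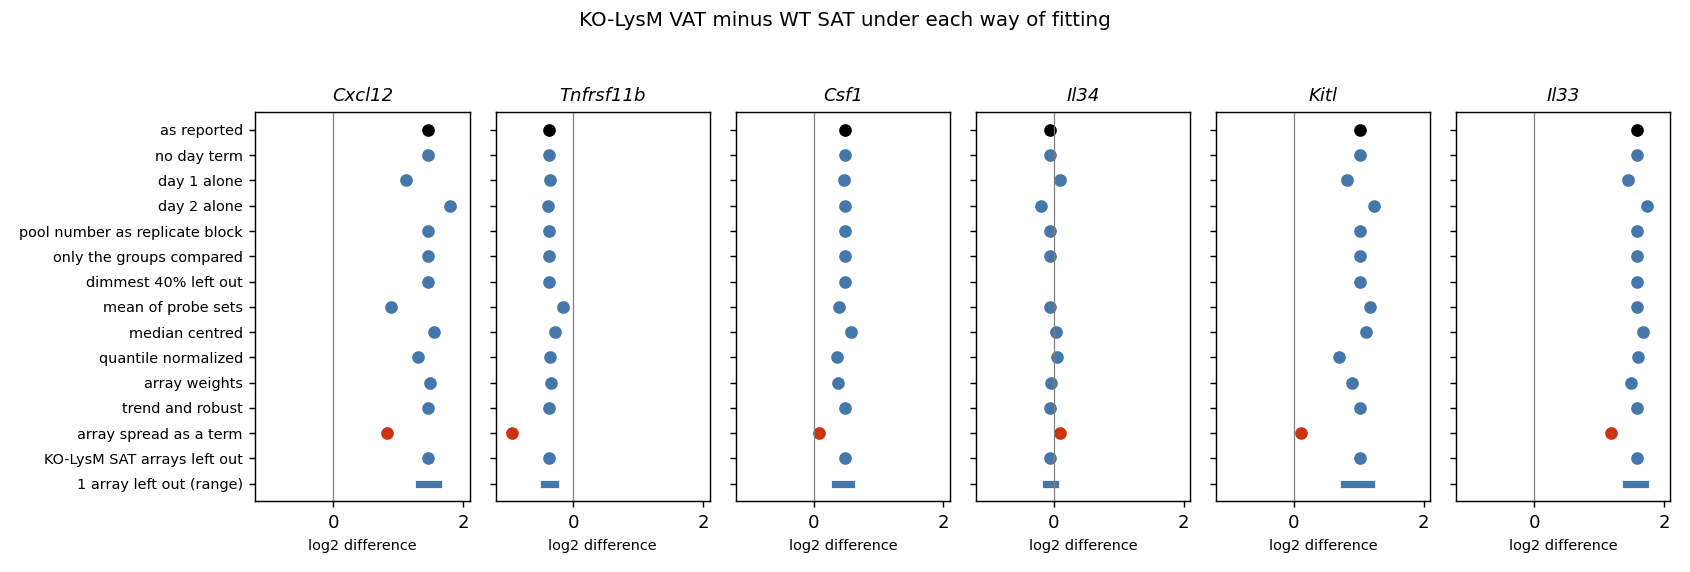
Log2 difference of KO-LysM VAT minus WT SAT for each gene under each way of fitting the arrays, with the reported value in black, the fit with array spread as a term in red, and a bar for the range on leaving out 1 array. Csf1 and Kitl move to 0.084 and 0.10 under that fit, and Il33 stays at 1.19.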

How the data were processed

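The deposited values are log2 expression values on Affymetrix probe sets, normalized together by the authors with RMA from the affy package, per the submitters' processing notes, with versions not given in the sources used here. They were used as deposited. Of 45141 probe sets, 28898 carried 1 gene symbol in the platform annotation and 551 carried several and were left out. Each of 17097 genes was read from the probe set with the highest mean.

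The limma package (3.58.1, R 4.3.3) fitted all 16 arrays (group and day as terms, empirical Bayes, two-sided), and p-values were adjusted by Benjamini-Hochberg over all genes. The 7 comparisons share arrays. The number of arrays limits the precision. In data simulated with each gene's own spread and no day effect, 100 genes were changed by 0.5 and 100 by 1 (log2) in KO-LysM SAT. Against WT SAT, 52 and 89 of these were called, with 10 false calls among the unchanged genes. In the real comparison 36.7% of all genes were called, so these rates do not measure its power.

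The members, lists and tests were chosen with earlier results of these data known. Named genes are the members, the measured receptors and partners, the 3 genes most correlated with each member, up to 4 genes of smallest p per list and comparison, and the markers that define a cell type. Pool numbers were checked for pairing: 24 correlations of same-numbered deviations ran from -0.48 to 0.63, and 3 of 6 group pairs had every one over 0.1, those without WT SAT. The deviations were from group means with day left in, and same-numbered pools share a day. The check therefore cannot tell shared animals from a shared day. Alternatives were the day term, each day alone, a pool block, fewer groups, a filter leaving out the dimmest 40% of genes, probe set means, centring, quantile normalization, array weights, a trend with robust variance, array spread (its interquartile range) as a term, and leaving out each array. Leaving out the KO-LysM SAT arrays was added after seeing the data.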

Additional observations from a re-analysis of the deposited data

Results flagged for a closer look

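The depot difference itself differed between the genotypes for 3 members, by the test of that difference across all 16 arrays (limma). It was -4.33 for Cxcl12, -5.36 for Tnfrsf11b and 1.97 for Il33, each with the same sign on day 1 and on day 2. For Cxcl12 the values were -3.71 and -4.94, for Tnfrsf11b -4.93 and -5.79, and for Il33 2.41 and 1.54. Those of Cxcl12 and Tnfrsf11b contain a depot difference known when the genes were chosen, and all 3 rest on arrays labelled KO-LysM SAT that carried seminal vesicle genes. The Il33 value takes in 3 groups at or near background and gives no fold. The part of a depot mix-up in these values was not tested. Such a difference was not limited to the members. Of 18 stromal progenitor markers, 2 were called with a positive sign and 5 with a negative one. The counts were 1 and 5 of 15 endothelial markers and 2 and 11 of 38 other stromal cytokines. They were 0 and 0 of 16 macrophage markers. Over all genes, 4.22% were called.

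Tnfrsf11a in WT SAT pool 2, at 5.50, stood apart from the 3 other pools at 5.15 to 5.21, with a gap of 0.845 of the group's range (above Dixon's 95% critical value for 4 samples). It was 1 of 56 groups of 4 pools examined, and chance gives about 1 in 20.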

How the results depend on the processing

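Of the members' differences, 446 kept direction and side of the threshold under the alternatives other than leaving out an array, 36 changed sign, 18 gained a call, 5 lost one and 4 moved otherwise. With the mean of probe sets, 2 member results gained a call and 1 lost its call. Fits without the day term, with a trend and robust variance and without the KO-LysM SAT arrays changed no member call. Pool number as a replicate block changed no member call either (members called: 1, 2, 2, 3, 3, 0 and 4 in the 7 comparisons) and is a shared number for groups that include WT SAT. The causes of the changes below were not tested.

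The count of members called between the wild-type depots was 0 on day 1 alone and 2 on day 2 alone. It was 5 on day 1 alone for KO-LysM VAT against WT VAT, 3 on day 1 alone and 1 with array spread as a term for KO-LysM SAT against WT VAT, and 2 with array spread for KO-LysM VAT against WT SAT. On leaving out 1 array it ranged from 2 to 4 for KO-LysM SAT against WT SAT (4 on leaving out pool 2 of WT SAT or pool 1 of WT VAT) and from 0 to 1 for KO-LysM SAT against WT VAT (1 without WT VAT pool 3, when Tnfrsf11b was 1.07, adjusted p = 0.0153).

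Signs turned as follows, mostly near 0. On day 1 alone, between the wild-type depots, Il34 was 0.13 and Kitl -0.34, on day 2 alone Il33 was 0.23, and Il34 was 0.0024 after quantile normalization and 0.016 with array spread. For KO-LysM SAT against WT SAT, Il34 was 0.046 on day 1 and 0.0086 after quantile normalization, and with array spread Csf1 was -0.092, Il34 0.062 and Kitl -0.44. For KO-LysM VAT against WT VAT, on day 2 Csf1 was -0.13 and Il34 0.00065, Il34 was 0.050 after median centring and 0.048 after quantile normalization, and with array spread Csf1 was -0.14 and Il34 0.078. For the difference of depot differences, Csf1 was 0.088 and Il34 -0.087 on day 1, and Kitl -0.65 on day 2.

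For KO-LysM SAT against WT VAT, Csf1 was 0.18 and Il33 0.031 on day 1, Cxcl12 -0.11 and Kitl -0.15 on day 2, and Cxcl12 -0.032 as the mean of probe sets. There Csf1 was 0.046 and Il34 0.0043 after median centring, Cxcl12 was -0.014, Il34 0.0062 and Kitl -0.025 after quantile normalization, and Cxcl12 was -0.24, Il34 0.046 and Kitl -0.47 with array spread. For KO-LysM VAT against WT SAT, Il34 was 0.091 on day 1, 0.036 after median centring, 0.051 after quantile normalization and 0.093 with array spread.

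Leaving out 1 array gave 650 of 672 values the same, and changed signs for Il34 between the wild-type depots (-0.097 to 0.033), in KO-LysM VAT against WT VAT (-0.062 to 0.016) and against WT SAT (-0.12 to 0.013), for Kitl in the difference of depot differences (-0.088 to 0.39), and in KO-LysM SAT against WT VAT for Csf1 (-0.11 to 0.077) and Il33 (-0.20 to 0.075). Of 4065 values for 144 results of receptors, cytokines and markers, 3489 were the same and the rest lost their call in the same direction, except that Mcpt8 in KO-LysM VAT against WT SAT turned to 0.0077 with array spread.

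Over all genes, the count called moved by over 1.5 times: between the wild-type depots 486 became 212 without the day term, 199 on day 1, 4222 on day 2, 60 with wild-type arrays alone, 1148 after quantile normalization and 1502 with array spread. For the KO-LysM depots 738 ranged from 199 to 2203, for KO-LysM SAT against WT SAT 6279 from 582 to 8451, for KO-LysM VAT against WT VAT 2724 from 331 to 5376, and for the difference of depot differences 722 from 330 to 1904. For KO-LysM SAT against WT VAT 1178 became 51 without the day term, 4017 on day 1, 18 on day 2 and 645 with the block, and for KO-LysM VAT against WT SAT 6717 became 1702 on day 1 and 1859 with array spread. Il34 gave no value with the dimmest 40% of genes left out.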

Other observations

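Other cytokine genes that stromal cells can make varied among the same groups. Of 38 measured (25 above background), 6 rose and 1 fell from WT SAT to WT VAT, 3 rose and 6 fell from KO-LysM SAT to KO-LysM VAT, 10 rose and 5 fell in KO-LysM SAT against WT SAT, and 2 rose and 8 fell in KO-LysM VAT against WT VAT. Over all genes 2.84%, 4.32%, 36.7% and 15.9% were called in these comparisons, and the 15 of 38 called in KO-LysM SAT against WT SAT are near the share of all genes. Between the wild-type depots the count of called genes was 1 on day 1 alone and 0 with wild-type arrays alone. The list was chosen with earlier results of these arrays known.

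Cxcl13, the chemokine that gathers B cells, had means of 7.23 and 6.09 in SAT and VAT of WT and 5.81 and 7.55 in those of KO-LysM. It rose between the KO-LysM depots by 1.74 (limma adjusted p = 2.49e-05), and its depot differences differed between genotypes by 2.88 (limma adjusted p = 3.73e-06). Fgf7, a fibroblast growth factor for epithelia, had means of 6.29, 6.23, 5.70 and 7.53 in the same order of groups and, like Il33, was highest in KO-LysM VAT, where it rose against WT VAT by 1.29 (limma adjusted p = 8.13e-05). Cx3cl1, a chemokine for monocytes, had means of 6.82, 7.50, 7.20 and 6.28, and fell in KO-LysM VAT against WT VAT by 1.22 (limma adjusted p = 8.85e-06). Cxcl16 fell there by 0.74 (limma adjusted p = 0.000193). Il6 rose in KO-LysM SAT against WT SAT by 2.82 (limma adjusted p = 4.39e-05).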
